A study of Mus musculus with 2 samples.

Results

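Tgfb1, Tgfbr1, Tgfbr2, Tgfbi, Itgb8, Smad7 and Ski, 7 of the 56941 genes counted, were followed through the T cells, macrophages, endothelial cells and tumor-like cells of mouse colorectal cancer liver metastases. They were taken by their symbols in the count tables, and all 7 were detected in both libraries. Their identifiers there are ENSMUSG00000002603 (Tgfb1), ENSMUSG00000007613 (Tgfbr1), ENSMUSG00000032440 (Tgfbr2), ENSMUSG00000035493 (Tgfbi), ENSMUSG00000025321 (Itgb8), ENSMUSG00000025880 (Smad7) and ENSMUSG00000029050 (Ski). Tgfb1 codes for the most widely expressed TGF-beta ligand, Itgb8 for the beta 8 chain of an integrin that frees the ligand from its latent form, and Tgfbr1 and Tgfbr2 for the type I and type II receptor chains. By role, these 4 are the ligand, activator and receptors. Tgfbi is a secreted matrix protein named for its induction by TGF-beta, Smad7 is an inhibitor that the pathway itself induces, and Ski is a co-repressor that holds SMAD complexes back at their target genes.

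The tumors were grown from MC38-LM3b cells, which were selected in mice for spread to the liver from MC38, a mouse colon carcinoma line. Tumor cells carrying a scrambled hairpin (shScramble, Ctrl) or 1 hairpin against SLAMF3 (shSLAMF3, KD), the product of Ly9, were injected into the spleen of C57BL/6 mice aged 6 to 8 weeks. Metastases were taken after 2 weeks, the lesions of 3 mice were pooled for each group, and CD45+ cells were enriched and profiled by droplet-based 3' single-cell RNA sequencing. Each group is therefore 1 library of a pool: the hairpin was in the injected tumor cells and not in the host's immune cells, and no difference between Ctrl and KD has a replicate check or a p-value.

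TGF-beta is secreted as a latent complex in which the mature cytokine stays wrapped in its own propeptide, and it signals only after release. Integrins that hold the alpha v chain (Itgav) with a beta 8 or beta 6 chain bind an Arg-Gly-Asp motif in that propeptide, on complexes displayed by Lrrc32 on regulatory T cells, by Nrros on myeloid cells or by the Ltbp proteins in the matrix. The freed ligand joins Tgfbr2 and Tgfbr1, which phosphorylate Smad2 and Smad3. In tumors the pathway is known for restraining CD8+ T cells, for the induction of regulatory T cells and for the deposition of matrix.

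The motif that the integrin reads is shown because it ties Itgb8 to Tgfb1 at the level of sequence. In the GENCODE vM21 transcripts (GRCm38, which is not the build of the count tables), the coding sequence was searched in frame for Arg-Gly-Asp codons, which are in capitals below with 18 flanking bases on each side, 5′ to 3′ on the coding strand.
Tgfb1: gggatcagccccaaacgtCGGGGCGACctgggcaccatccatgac
Tgfb3: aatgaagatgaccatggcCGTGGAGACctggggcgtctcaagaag
Tgfbi: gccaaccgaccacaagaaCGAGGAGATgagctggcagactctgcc
The Tgfb1 site is at chr7:25697142-25697150 on the plus strand, in exon 5, and is residue 244 of 390 codons. The Tgfb3 site is at chr12:86062165-86062173 on the minus strand, in exon 5, and is residue 261 of 412. The site in Tgfbi, whose product binds integrins as an extracellular matrix protein, is at chr13:56637155-56637163 on the plus strand, in exon 15, residue 642 of 683. Each of these 3 coding sequences holds 1 such motif, and the 2 coding transcripts of Tgfb2 (414 and 442 codons) hold none.

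Of 10416 Ctrl and 10943 KD barcodes, with 67207234 and 64444715 UMIs (counted RNA molecules), 9814 and 10185 cells passed the study's filters, at medians of 5411 and 4989 UMIs. The libraries share 27 barcodes. Cells were clustered without the 47 TGF-beta pathway genes and named from markers: all 6 regulatory T cell (Treg) markers were detected in the 72 Ctrl and 118 KD cells called Treg-like, summing to 5709.6 and 6862 CPM (UMIs of a gene per 1000000 UMIs of the class). All 9 endothelial markers were detected in the 150 Ctrl and 645 KD cells called endothelial-like, at 9741 and 11882 CPM. Among the 161 Ctrl and 96 KD cells called tumor- or fibroblast-like, 1 and 2 of 6 epithelial tumor markers were at 0 and all 7 fibroblast markers were present, so these cells cannot be assigned to the injected line alone. Ptprc, which codes for CD45, was at 98.4 and 121 CPM in the endothelial-like and 40.9 and 37.5 CPM in the tumor- or fibroblast-like cells, against 766 and 815 over all cells, so little CD45 RNA was counted in either. The targeted gene Ly9 had 12 Ctrl and 7 KD UMIs in them, too few to check the hairpin. The 971 Ctrl and 353 KD cells of the low-UMI macrophages stood apart from other macrophages, with median depths of 2617 and 2322 UMIs and 20162 and 21450.2 CPM of Malat1, a nuclear RNA, against 8238 and 9666 in C1qc+ TAM-like cells (tumor-associated macrophages rich in complement C1q).

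Over all kept cells the log2 ratios of KD over Ctrl ran from -0.24 for Smad7 to 0.31 for Itgb8. Tgfb1 was at 122 CPM in Ctrl and 126 in KD, Tgfbr1 at 78.4 and 81.5, Tgfbr2 at 106 and 115, and Ski at 70.9 and 68.3. Tgfbi had the most UMIs, 17736 and 17773, and Itgb8 the fewest, 297 and 354. Smad7 was at 124 and 105 CPM, a log2 ratio of -0.24 (-0.28 to -0.19). Intervals in parentheses are exact 95% intervals and cover the error of counting UMIs only. A level over all cells mixes the cell types of a library, and fewer cells of a type and less RNA per cell cannot be told apart in it, so the genes are given by cell class.

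**Figure D1:**
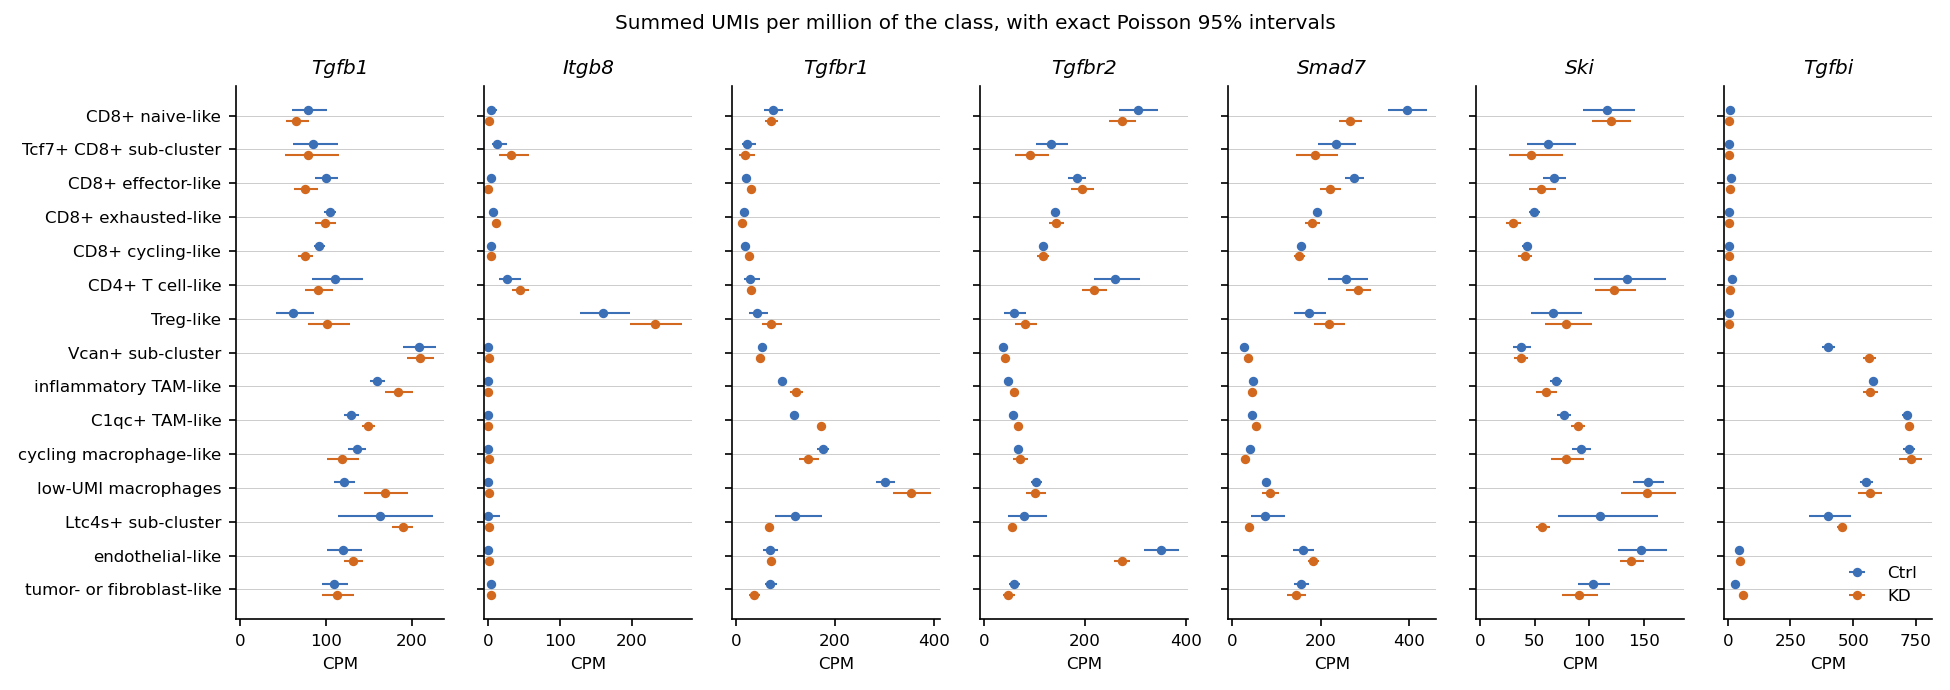
Level of each gene in CPM (x axes) in 15 cell classes (y axis), Ctrl in blue and KD in orange, points at the summed UMIs of the class as CPM and bars as exact Poisson 95% intervals. Itgb8 stands in the Treg-like cells, Tgfbi in the macrophages, Smad7 in the T cells and Tgfbr2 in endothelial-like and CD8+ naive-like cells, while Tgfb1 in these 15 classes lies between 61.4 and 209 CPM.

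The ligand Tgfb1 was counted in every class, at higher levels in macrophages than in CD8+ T cells. Granulocyte-like cells, at 69.1 and 68.7 CPM, were below both. NK cell-like cells were at 181 and 100.2 CPM, B cell-like cells at 177 and 134 CPM and Kupffer-like cells at 168 and 134 CPM. These classes lay above all macrophages in Ctrl, with overlapping intervals, and below them in KD. Over all macrophages Tgfb1 was at 147 CPM in Ctrl (142 to 152) and 170.4 CPM in KD (165 to 176). Over all CD8+ T cells it was at 97.6 CPM in Ctrl (93.5 to 102) and 80.5 CPM in KD (74.9 to 86.4). The macrophages were 1.51-fold (1.43 to 1.59) higher in Ctrl and 2.12-fold (1.96 to 2.29) in KD. Macrophages held 48.3% and 49.9% of all Tgfb1 UMIs of the libraries. The highest level in both libraries was in the Vcan+ sub-cluster, cells led by Lcn2, Chil3, S100a8 and Vcan, at 209 and 209 CPM. Inflammatory TAM-like cells, led by Nos2 and Il1b, were at 159.8 and 184 CPM and C1qc+ TAM-like cells at 129 and 149 CPM. Endothelial-like cells were at 120.2 and 132 CPM and tumor- or fibroblast-like cells at 109.9 and 112 CPM, between the levels over all macrophages and over all CD8+ T cells. Of 14 neighbours in the order of the 15 classes, the intervals of 13 pairs overlapped in Ctrl and of 14 in KD. From the lowest class to the highest, the levels ran from 61.4 to 209 CPM in Ctrl and from 65.6 to 209 CPM in KD. The Treg-like cells had the lowest level of the 15 classes in Ctrl, 61.4 CPM from 33 UMIs, and 101 CPM from 72 UMIs in KD.

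The other ligands were scarce. Tgfb3, which carries the same integrin motif, was at 16.8 and 8.69 CPM over all macrophages, from 431 and 198 UMIs, a log2 ratio of -0.95 (-1.20 to -0.70). It was at 28.3 and 16.5 CPM in Kupffer-like cells, the resident macrophages of the liver, and at 1.24 and 1.16 CPM over all CD8+ T cells. Tgfb2, which lacks the motif, was at 17.2 and 3.83 CPM in tumor- or fibroblast-like cells and at or below 1.88 CPM over all CD8+ T cells and macrophages.

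The activator Itgb8 had its highest level in the Treg-like cells, though most of its UMIs lay in other cells. Treg-like cells had 86 UMIs in Ctrl and 165 in KD, which is 160.1 CPM in Ctrl (128 to 198) and 233 CPM in KD (198 to 271). They made up 0.734% and 1.16% of the cells and held 29.0% and 46.6% of all Itgb8 UMIs. All CD8+ T cells, 27.0% and 13.4% of the cells, held 44.8% and 16.7% of these UMIs. The CD4+ T cell-like cells held 4.71% and 18.1%, and unnamed cells 15.5% and 6.78%. CD4+ T cell-like cells, at 27.2 CPM in Ctrl (14.9 to 45.6) and 44.4 CPM in KD (34.2 to 56.7), came next in both libraries, and the Treg-like cells exceeded them 5.89-fold (3.33 to 11.2) in Ctrl and 5.24-fold (3.90 to 7.11) in KD. Of the CD8+ T cells, the Tcf7+ sub-cluster was at 13.2 and 32.3 CPM, from 7 and 11 UMIs, and exhausted-like cells at 7.76 and 11.5 CPM. The Tcf7+ name was lost at resolution 1.0, without likely doublets and with the pathway genes kept as variable genes. The exhausted-like cells were 20.6-fold and 20.2-fold below the Treg-like cells. Naive-like CD8+ cells held only 4 and 3 UMIs. Itgb8 was not used to form the clusters, but regulatory T cells were grouped by genes that travel with it, so these differences between classes are a description.

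Counted by cell, after each cell was thinned to 1500 UMIs, Itgb8 was seen in 25.4% (15.8 to 37.1%) of Ctrl and 30.5% (22.4 to 39.7%) of KD Treg-like cells. Without thinning, at median depths of 5797 and 4389 UMIs, the shares were 47.2% and 55.9%. At 1500 UMIs the shares were 5.56% and 4.92% in CD4+ T cell-like cells and 0.724% and 1.11% in all CD8+ T cells. Macrophages, taken as the background for free RNA, were at 0.0531% and 0.142%. Thinning left out 1 Ctrl and 0 KD Treg-like cells, and 292 and 117 macrophages, as too shallow. Unthinned, at median depths of 5551 and 7352 UMIs, 0.197% and 0.544% of macrophages held an Itgb8 UMI.

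Dendritic cells are a known source of the beta 8 integrin in other tissues, and here few or no UMIs were counted in them. No Itgb8 UMI was counted in cDC1-like cells in either library, where 3 counts would be 5.26 and 3.03 CPM. None was counted in the Cd209a+ dendritic cell sub-cluster either, where 3 counts would be 3.21 and 1.48 CPM. Mature migratory DC-like cells, 29 in Ctrl and 34 in KD, held 0 and 1 UMIs. There 3 counts would be 17.7 and 11.8 CPM, too high a limit to call the gene low. NK cell-like and Kupffer-like cells also had none in both libraries, where 3 counts would be 4.56 and 3.23 CPM in the former and 7.08 and 4.95 in the latter.

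Itgav, the partner chain of Itgb8, was at 585 CPM in Ctrl and 1033 CPM in KD in Treg-like cells, a log2 ratio of 0.82 (0.63 to 1.02), and at 386 and 734 CPM in CD4+ T cell-like cells, a log2 ratio of 0.92 (0.71 to 1.15). CD8+ exhausted-like cells were at 467 and 516 CPM and naive-like cells at 77.7 and 61.7 CPM. Lrrc32, which anchors latent TGF-beta on the surface of regulatory T cells, was at 26.1 and 63.4 CPM in Treg-like cells, from 14 and 45 UMIs. Over all CD8+ T cells Lrrc32 was at 0.229 and 0.210 CPM. The classes with the highest Itgb8 thus also held Itgav, and the Treg-like cells held all 3 genes.

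Foxp3, the transcription factor that defines regulatory T cells, was seen in 35 of 72 Ctrl and 57 of 118 KD Treg-like cells. Whether the other cells lacked Foxp3 RNA or were too shallow to show it was not tested. In cells with a Foxp3 UMI, Itgb8 was at 115 CPM (79.9 to 159.5) in Ctrl and 289 CPM (235 to 352) in KD. In Treg-like cells without one, it was at 219.8 CPM (164 to 289) and 181 CPM (140.1 to 229.6). The KD library was higher among the former, where the intervals did not overlap, and lower among the latter, where they did. CD4+ T cell-like cells with no Foxp3 UMI were still at 25.4 CPM (13.5 to 43.4) and 45.0 CPM (34.6 to 57.4). Over all Treg-like cells the log2 ratio was 0.54 (0.15 to 0.93), and when cells were classed by single markers without clusters it was 0.99.

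**Figure D2:**
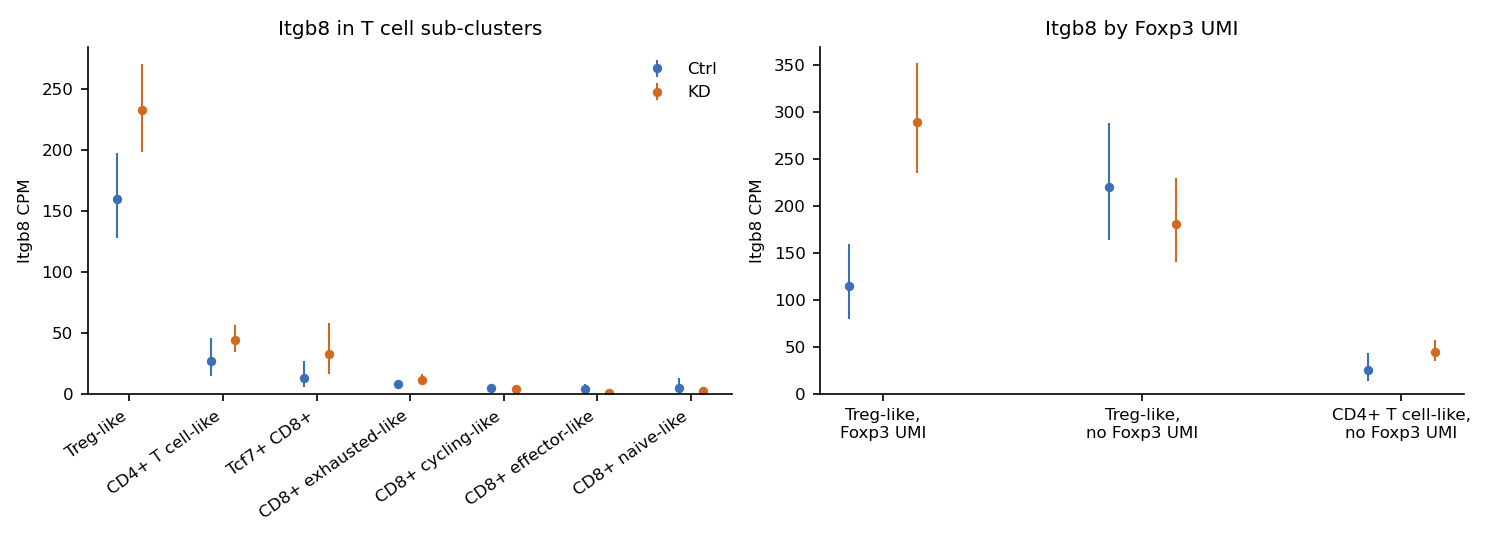
Itgb8 in CPM (y axes) in the T cell sub-clusters (left) and in Treg-like and CD4+ T cell-like cells split by whether a Foxp3 UMI was counted (right). Ctrl is blue, KD is orange and bars are exact Poisson 95% intervals. Treg-like cells sit at 160.1 and 233 CPM and every CD8+ sub-cluster at or under 32.3 CPM, and the libraries differ most in Treg-like cells with a Foxp3 UMI.

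The genes that store the latent ligand were divided between cell types. Nrros, the anchor of myeloid cells, was at 181 and 196 CPM over all macrophages and 23.7 and 32.3 CPM over all CD8+ T cells. Lrrc32 was found in endothelial-like cells too, at 73.1 and 57.0 CPM, higher than in the Treg-like cells in Ctrl. Of the matrix anchors, Ltbp1 was at 240.4 and 152 CPM in tumor- or fibroblast-like cells and Ltbp4 at 77.5 and 73.1 CPM in endothelial-like cells, while macrophages held both at or below 1.32 CPM. Itgb6, the other integrin chain known for the release of TGF-beta, was nearly confined to tumor- or fibroblast-like cells, with 37 and 17 UMIs, among the classes drawn in the map of these genes. Thrombospondin 1 (Thbs1), a matrix protein that can release the ligand, was a macrophage and granulocyte gene, at 451 and 869.8 CPM in the former and 592 and 367 CPM in the latter.

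**Figure D3:**
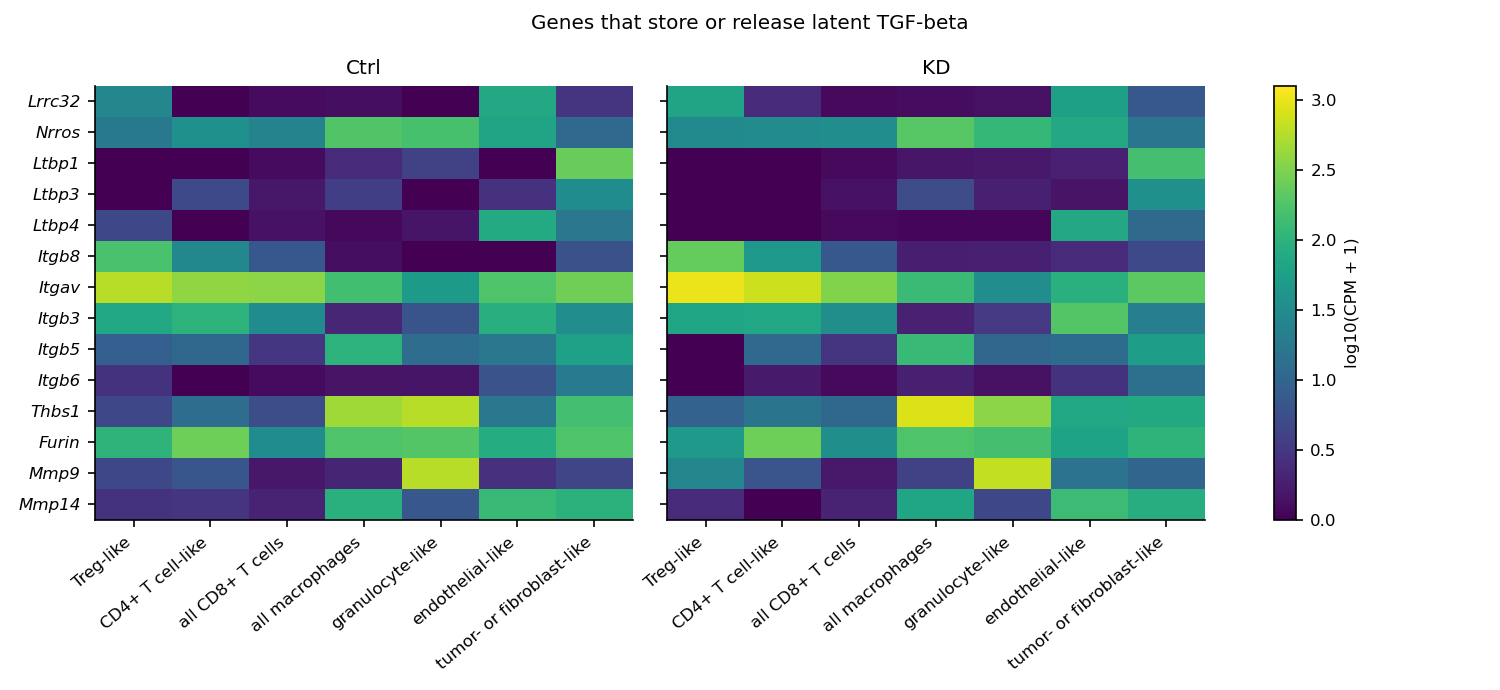
Level of 14 genes that store, release or process latent TGF-beta, as log10(CPM + 1) in color, in 7 cell classes (x axes) of the Ctrl (left) and KD (right) libraries. Itgb8 is highest in the Treg-like column, Lrrc32 in the Treg-like and endothelial-like columns, Nrros and Thbs1 in the macrophage and granulocyte-like columns and Ltbp1 the tumor- or fibroblast-like column, in both libraries.

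The type II receptor Tgfbr2, which binds the ligand, was, of the 15 classes drawn, highest in endothelial-like cells and in CD8+ naive-like cells. B cell-like cells, outside these classes, were at 268 CPM in Ctrl (234 to 306) and 346 CPM in KD (323 to 369.8). Endothelial-like cells were at 350.0 CPM in Ctrl (317 to 386) and 274 CPM in KD (258 to 289.8), and CD8+ naive-like cells, led by Lef1, at 305 CPM in Ctrl (268 to 345) and 272 CPM in KD (247 to 299.9). These neighbours did not differ beyond their intervals, with a fold of 1.15-fold (0.978 to 1.35) in Ctrl and 1.00-fold (0.898 to 1.13) in KD. CD4+ T cell-like cells followed at 260.2 and 218 CPM. Treg-like cells were at 59.6 and 81.7 CPM, from 32 and 58 UMIs. Macrophages were at 60.5 and 62.1 CPM, so that CD8+ T cells exceeded them 2.34-fold in Ctrl and 2.57-fold in KD. Tumor- or fibroblast-like cells were at 60.1 and 48.2 CPM. After thinning, 42.3% of Ctrl and 35.3% of KD endothelial-like cells held a Tgfbr2 UMI, against 9.35% and 9.35% of macrophages.

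Within the CD8+ T cells Tgfbr2 stepped down from naive-like cells to effector-like, exhausted-like and cycling-like cells, and the steps were alike in the libraries. The levels were 305, 184, 141 and 117 CPM in Ctrl and 272, 194, 142 and 117 CPM in KD. This order was not particular to the pathway. Ptprc was at 1793, 1382, 927 and 804 CPM in Ctrl and 1493, 1384, 979 and 965 in KD over the same classes. Malat1 was at 10280, 10008, 4266 and 3542 CPM in Ctrl and 10284, 8530, 4202 and 4018 in KD. Whether the steps of the pathway genes go beyond this was not tested. Naive-like cells were 2.16-fold (1.87 to 2.47) above exhausted-like cells in Ctrl and 1.91-fold (1.66 to 2.21) in KD. Effector-like cells were 1.30-fold (1.16 to 1.45) and 1.36-fold (1.16 to 1.59) above exhausted-like cells. The name of the exhausted-like cells is weak beside the effector-like cells: the summed level of 6 exhaustion markers was 1959 and 1854 CPM in the former and 2073 and 1690.4 in the latter, higher in effector-like cells in Ctrl. The genes that lead the exhausted-like cells include Ccl3, Serpinb9b, Spp1 and Prf1 and none of these markers. Depth moved with this order, from medians of 3922 and 4034 UMIs per cell in naive-like to 13226 and 10633 in cycling-like cells. Its part in the levels was not tested, and thinning does not change a gene's share of the RNA. After thinning to 1500 UMIs, 67 of 195 Ctrl and 122 of 349 KD naive-like cells held a Tgfbr2 UMI. Of exhausted-like cells, 207 of 1073 and 61 of 300 did.

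**Figure D4:**
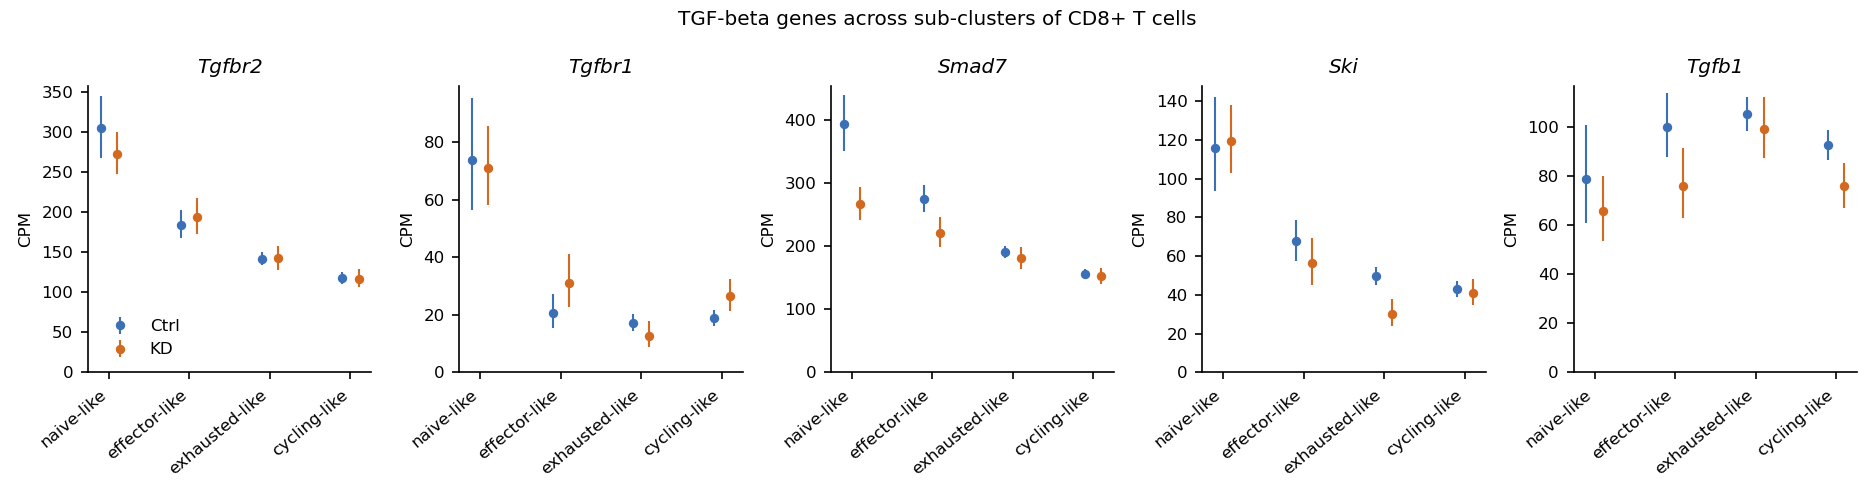
Tgfbr2, Tgfbr1, Smad7, Ski and Tgfb1 in CPM (y axes, from 0) in 4 sub-clusters of CD8+ T cells (x axes). Ctrl is blue, KD is orange and bars are exact Poisson 95% intervals. Both receptors and both inhibitors are highest in naive-like cells, Tgfbr2 at 305 and 272 CPM against 117 and 117 in cycling-like cells, and Tgfb1 is lowest there.

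The type I receptor Tgfbr1, the kinase that passes the signal on, had another distribution: it was a macrophage gene more than a T cell gene. Macrophages were at 136 CPM in Ctrl (132 to 141) and 130.2 CPM in KD (126 to 135) and all CD8+ T cells at 20.5 CPM in Ctrl (18.6 to 22.5) and 30.4 CPM in KD (27.0 to 34.1). The fold was 6.66-fold (6.03 to 7.37) in Ctrl and 4.29-fold (3.80 to 4.86) in KD, the opposite direction to Tgfbr2. Within the CD8+ T cells, naive-like cells were again highest, at 74.0 and 70.9 CPM against 17.1 and 12.7 CPM in exhausted-like cells. Treg-like cells were at 42.8 and 70.5 CPM, from 23 and 50 UMIs, and endothelial-like cells at 68.8 and 70.8 CPM. Outside these classes, plasmacytoid dendritic cell-like cells were at 216 and 174 CPM.

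Among macrophages Tgfbr1 was highest in the low-UMI cells, at 301 CPM in Ctrl (282 to 321) and 354 CPM in KD (318 to 392), 2.56-fold and 2.06-fold above C1qc+ TAM-like cells. Tgfbr2, Smad7 and Ski were also higher there, by 1.78-fold and 1.48-fold for Tgfbr2, 1.65-fold and 1.58-fold for Smad7 and 1.99-fold and 1.70-fold for Ski. Tgfbi was lower, at 0.772-fold and 0.781-fold. These cells had the high Malat1 given above and median mitochondrial shares of 3.15% and 4.49%, against 1.21% and 1.48%, whose part in the levels was not tested. The Vcan+ sub-cluster had the lowest Tgfbr1 of the macrophages, 53.0 and 49.4 CPM, and C1qc+ TAM-like cells were 2.22-fold and 3.48-fold above it.

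The inhibitor Smad7, which blocks Tgfbr1, was highest in T cells among the 15 classes. All CD8+ T cells were at 193 CPM in Ctrl (188 to 199) and 190.3 CPM in KD (182 to 199), 4.01-fold (3.76 to 4.27) above macrophages in Ctrl and 4.05-fold (3.75 to 4.37) in KD. In the CD8+ T cells it followed the order of Tgfbr2: naive-like, effector-like, exhausted-like and cycling-like cells were at 393, 275, 191 and 155 CPM in Ctrl and 267, 221, 181 and 152 in KD. The naive-like cells exceeded the exhausted-like cells 2.06-fold (1.82 to 2.32) in Ctrl and 1.48-fold (1.29 to 1.69) in KD. CD4+ T cell-like cells were at 258 and 284 CPM and Treg-like cells at 173 and 218 CPM, so that Treg-like cells had Smad7 in the range of the other T cells while their Tgfbr2 was the lowest of the 7 T cell classes. Endothelial-like cells were at 161 and 183 CPM and tumor- or fibroblast-like cells at 157 and 144 CPM.

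Ski, which silences SMAD target genes, was spread over lymphoid, myeloid and stromal cells. Its highest levels were in low-UMI macrophages, 153 and 152 CPM, endothelial-like cells, 147 and 138 CPM, CD4+ T cell-like cells, 134 and 123 CPM, and CD8+ naive-like cells, 116 and 119 CPM. Neighbours in this order overlapped in 13 of 14 pairs in Ctrl and 14 in KD. Within the CD8+ T cells it was at 67.5 and 56.2 CPM in effector-like, 49.6 and 30.2 CPM in exhausted-like and 43.0 and 40.8 CPM in cycling-like cells. Naive-like cells exceeded exhausted-like cells 2.34-fold (1.85 to 2.93) in Ctrl and 3.95-fold (3.01 to 5.23) in KD. Macrophages as a whole, at 83.1 and 73.1 CPM, were above CD8+ T cells, at 51.4 and 53.3 CPM.

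The target gene Tgfbi was a macrophage gene. Macrophages held 90.3% and 78.8% of its UMIs, at 622 CPM in Ctrl (613 to 632) and 614 CPM in KD (604 to 625), and all CD8+ T cells were at 5.83 and 5.88 CPM, 107-fold and 104-fold lower. C1qc+ TAM-like and cycling macrophage-like cells had the most, 714 and 724 CPM and 722 and 729 CPM, with overlapping intervals. Inflammatory TAM-like cells were at 579 and 568 CPM. After thinning, 58.7% (55.5 to 61.8%) of Ctrl and 60.9% (57.9 to 63.9%) of KD C1qc+ TAM-like cells held a Tgfbi UMI, against 1.22% and 1.19% of CD8+ T cells. Without thinning, at median depths of 6407 and 8195 UMIs for the former and 6935 and 5757 for the latter, the shares were 88.0% and 94.3% against 4.76% and 4.03%.

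The few Tgfbi UMIs in CD8+ T cells as a whole stood in nearly the same ratio to C1q RNA as in macrophages. Per 1000 UMIs of the complement genes C1qa, C1qb and C1qc, there were 88.4 Tgfbi UMIs in Ctrl and 97.9 in KD macrophages, and 89.2 and 93.5 in CD8+ T cells. By T cell class the ratio ran from 46.2 in Treg-like cells of Ctrl to 129 in exhausted-like cells of KD, from 2 to 53 Tgfbi UMIs a class, and whether these are free RNA was not tested. Endothelial-like cells, at 45.3 and 50.5 CPM, gave 115 and 84.5, and tumor- or fibroblast-like cells, at 30.5 and 62.7 CPM, gave 70.8 and 122. Granulocyte-like cells gave 538 and 609 and were at 162 and 219 CPM, so their Tgfbi was not in the ratio of macrophage RNA. Per 1000 UMIs of Lyz2, the lysozyme of macrophages and granulocytes alike, macrophages gave 128 and 89.6 and granulocyte-like cells 116 and 134.

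Between the libraries, 8 pairs of gene and class in the named classes passed 1.5-fold, all of them lower in KD. Of these, 7 lay in the NK cell-like, granulocyte-like, plasmacytoid dendritic cell-like and Ltc4s+ classes. A gene was counted in a class with at least 200 UMIs over both libraries, and a difference of 1.5-fold or more stood in for a test. Of 168 pairs in all 24 named classes, 82 had enough UMIs. In the unnamed cells Tgfbi was past the fold upward, at 145 and 220 CPM from 857 and 1122 UMIs. Its log2 ratio there was 0.60 (0.47 to 0.73), where 15.8% of all genes were past the fold. In 13 classes of T cells, macrophages, endothelial-like and tumor- or fibroblast-like cells, which leave out the Tcf7+ and Ltc4s+ sub-clusters for their few cells in a library, 59 of 91 pairs of gene and class had enough UMIs, and 1 pair was past 1.5-fold: Ski in CD8+ exhausted-like cells, at 49.6 CPM in Ctrl (45.0 to 54.5) and 30.2 CPM in KD (23.8 to 37.8), with 428 and 76 UMIs. Its log2 ratio was -0.71 (-1.08 to -0.36), where 3.32% of all genes of that class were past the fold. With cells classed by single markers the log2 ratio was -0.38, inside the fold. Under the stricter cell filter, 0% of these cells kept their name and 81 Ctrl and 12 KD other cells took it. The log2 ratio there was -0.15, which, being from other cells, cannot check the call. The name stayed with 97.4% of the cells with the pathway genes kept as variable genes and 62.4% without likely doublets. Ski ratios for those settings are not given here. The same background was 5.81% in CD8+ naive-like, 2.72% in effector-like, 4.72% in cycling-like, 3.5% in CD4+ T cell-like and 12.9% in Treg-like cells. It was 12.3% in the Vcan+ sub-cluster, 6.41% in inflammatory TAM-like, 8.13% in C1qc+ TAM-like, 8.39% in cycling macrophage-like and 9.89% in low-UMI cells. It was 12.7% in endothelial-like and 17.2% in tumor- or fibroblast-like cells. No member with enough UMIs was past the fold in these 12 classes.

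**Figure D5:**
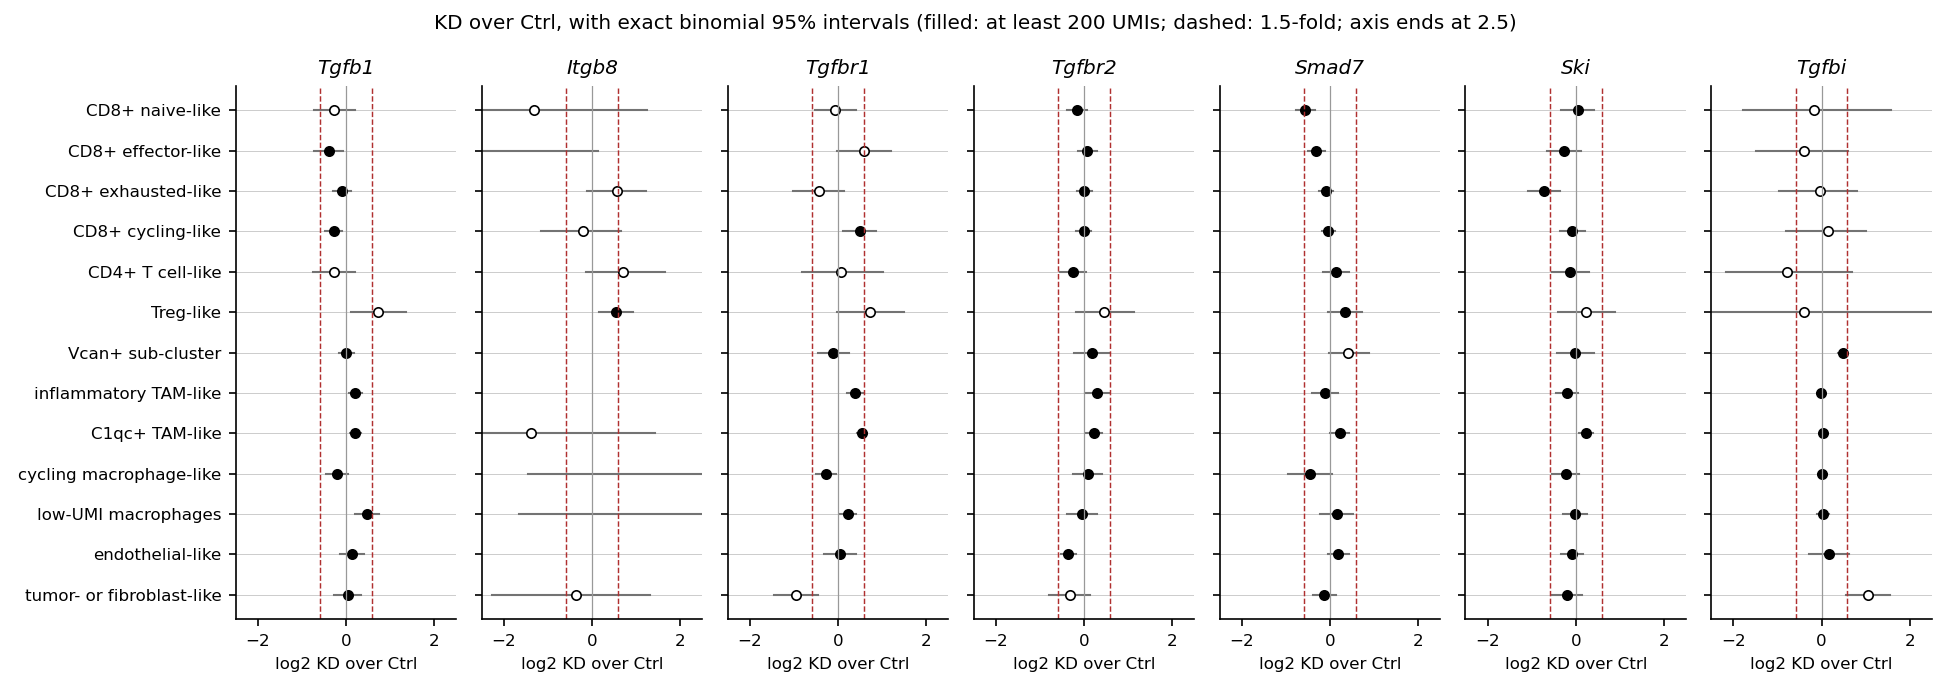
Log2 ratio of KD over Ctrl (x axes) for each gene in 13 cell classes (y axis), with exact binomial 95% intervals as bars, and dashed lines at 1.5-fold. Filled points have at least 200 UMIs over both libraries and open points fewer, and the axes end at 2.5 on either side. The 1 filled point past a dashed line is Ski in CD8+ exhausted-like cells, at -0.71.

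Some of the pairs inside the fold are given here, not all and not in order of nearness to it. Tgfb1 in low-UMI macrophages had a log2 ratio of 0.47 (0.20 to 0.74). Smad7 in cycling macrophage-like cells was at -0.44 (-0.95 to 0.05) and Tgfb1 in CD8+ effector-like cells at -0.40 (-0.73 to -0.07). Smad7 in CD8+ naive-like cells was at 393 CPM in Ctrl (351 to 439) and 267 CPM in KD (241 to 294), a log2 ratio of -0.56 (-0.78 to -0.35). At a cluster resolution of 1.0, which left the name to 0.361% of these cells, Smad7 was at -0.12, and with cells classed by single markers 0.07. The name stayed with 99.0% of the cells under the stricter filter, 98.7% with the pathway genes kept and 95.8% without likely doublets. Smad7 ratios for those settings are not given here. Tgfbr1 in C1qc+ TAM-like cells was at 118 CPM in Ctrl (109.9 to 126) and 172 CPM in KD (163 to 180.4), a log2 ratio of 0.54 (0.42 to 0.67). It was 0.67 under the stricter filter, past the fold, where 58.9% of the cells had that name, and -0.01 without likely doublets, when 64.4% of those cells carried the same name. Tgfbi in the Vcan+ sub-cluster was at 401 CPM in Ctrl (376 to 428) and 563 CPM in KD (538 to 589), a log2 ratio of 0.49 (0.37 to 0.60) that stayed between 0.49 and 0.56 in 6 alternatives. In these cells the granulocyte markers summed to 1077 CPM in Ctrl and 5153 in KD and the cycling markers to 96.8 and 439, with none of these 10 and 6 markers at 0, and their part in the ratio was not tested. Tgfbr2 in endothelial-like cells was at 350.0 and 274 CPM, a log2 ratio of -0.35 (-0.52 to -0.19). The KD endothelial-like cells also held more granulocyte RNA, 1442 against 30.5 CPM summed over 10 markers, with 0 and 2 of them at 0, and its part in the ratio was not tested.

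Over all macrophages the log2 ratios were 0.21 (0.15 to 0.28) for Tgfb1, -0.07 (-0.14 to 0.00) for Tgfbr1, 0.04 (-0.07 to 0.14) for Tgfbr2, -0.04 (-0.16 to 0.08) for Smad7, -0.18 (-0.28 to -0.09) for Ski and -0.02 (-0.05 to 0.01) for Tgfbi. The macrophages of the libraries differed in makeup: the Ltc4s+ sub-cluster held 28 Ctrl and 601 KD cells and the low-UMI cells 971 and 353. Without both, Tgfbr1 was at 0.26, of opposite sign, and Ski at -0.00084. Over all CD8+ T cells Tgfb1 was lower in KD, by a log2 ratio of -0.28 (-0.40 to -0.16), and Tgfbr1 higher, 0.57 (0.35 to 0.79), while Smad7 differed by -0.02 (-0.10 to 0.06). Here too the makeup differed, with 198 naive-like of 2645 CD8+ T cells in Ctrl and 356 of 1366 in KD. By class, Tgfbr1 was at -0.06 (-0.53 to 0.42) in naive-like, 0.59 (-0.02 to 1.19) in effector-like, -0.43 (-1.03 to 0.13) in exhausted-like and 0.50 (0.12 to 0.87) in cycling-like cells, values of both signs.

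Outside the 13 classes, 7 pairs in named classes were past the fold. Of all genes, 5.32% were past it downward and 1.87% upward in NK cell-like cells, and 10.0% and 18.4% in the Ltc4s+ sub-cluster. These shares were 13.5% and 16.1% in granulocyte-like cells and 7.46% and 2.57% in plasmacytoid dendritic cell-like cells. NK cell-like cells had Tgfb1 at 181 and 100.2 CPM and Smad7 at 245 and 144 CPM, log2 ratios of -0.85 (-1.26 to -0.45) and -0.76 (-1.10 to -0.42), where 7.19% of all genes of that class were past the fold. In the Ltc4s+ sub-cluster, led by Ltc4s, Cxcl3 and Pf4, with 28 Ctrl cells, the log2 ratio was -0.84 (-1.41 to -0.22) for Tgfbr1, -0.93 (-1.64 to -0.12) for Smad7 and -0.94 (-1.53 to -0.29) for Ski, from 27, 17 and 25 Ctrl UMIs. There 28.5% of all genes were past the fold. Ski in granulocyte-like cells was at 63.1 and 41.2 CPM, a log2 ratio of -0.62 (-0.92 to -0.31), where the background was 29.6%. Smad7 in plasmacytoid dendritic cell-like cells was at 278 and 157 CPM, a log2 ratio of -0.83 (-1.26 to -0.40), where it was 10%. Of the other 7 classes, B cell-like cells had 4 members with enough UMIs and the Cd209a+ dendritic cell sub-cluster 3, none past the fold. The remaining classes had no member with enough UMIs, so no member could be compared in them. Backgrounds in the 7 classes were 4.62% in the Tcf7+ sub-cluster, 4.32% in B cell-like, 17.3% in Kupffer-like, 18.1% in cDC1-like and 19.6% in mature migratory DC-like cells, and 7.98% and 10.8% in the Cd209a+ and cycling dendritic cell sub-clusters.

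With fewer than 200 UMIs, some wider differences remain uncertain. In tumor- or fibroblast-like cells, Tgfbi was at 30.5 and 62.7 CPM, from 62 and 82 UMIs, and Tgfbr1 at 69.5 and 36.0 CPM, from 141 and 47. The log2 ratios were 1.04 (0.55 to 1.54) and -0.95 (-1.46 to -0.46). Summed markers of macrophages in these cells were 747 CPM in Ctrl and 1109.6 in KD, and summed markers of fibroblasts 1845 and 875, whose part in these ratios was not tested. In Treg-like cells, Tgfb1 had a log2 ratio of 0.72 (0.11 to 1.36) from 33 and 72 UMIs.

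The other 40 genes of a list of the pathway were counted in the same way with a floor of 50 UMIs. In Treg-like cells 15 of 40 reached 50 UMIs, of which 6 passed 1.5-fold upward in KD and 1 downward, and 19.4% of all genes were past it in either direction. Besides Itgav, Lrrc32 was higher there, at 1.28 (0.39 to 2.26), and the median log2 ratio of the list was 0.35 against -0.01 over all genes. In CD4+ T cell-like cells 17 of 40 reached 50 UMIs, of which 2 passed 1.5-fold upward in KD and 1 downward, and 11.6% of all genes were past it in either direction. Over all CD8+ T cells 23 of 40 reached 50 UMIs, of which 7 passed 1.5-fold upward in KD and 0 downward, and 11.6% of all genes were past it in either direction. Within the sub-clusters the genes past the fold were 3 higher and 3 lower in naive-like (background 12%), 1 and 3 in effector-like (7.38%), 3 and 1 in exhausted-like (8.92%) and 3 and 0 in cycling-like cells (9.75%). The list's median log2 ratio was 0.37 over all CD8+ T cells, -0.15 in naive-like, -0.34 in effector-like, 0.06 in exhausted-like and 0.15 in cycling-like cells. Smad3, which carries the signal to DNA, was at 30.2 and 65.5 CPM over all CD8+ T cells and at 160.3 and 150.3 CPM in naive-like and 20.8 and 31.8 CPM in exhausted-like cells. Skil, a co-repressor like Ski, was at 85.6 and 54.1 CPM in exhausted-like cells, a log2 ratio of -0.66 (-0.94 to -0.40), and at 160.3 and 95.8 CPM in naive-like cells.

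In the macrophages genes of the list passed the fold in both directions. Over all macrophages 32 of 40 reached 50 UMIs, of which 4 passed 1.5-fold upward in KD and 2 downward, and 15.6% of all genes were past it in either direction. Fn1, which codes for the matrix protein fibronectin, was at 164 and 611 CPM, and Thbs1 at 451 and 869.8 CPM. Fn1 and Thbs1 are among the leading genes of a first-pass macrophage cluster with 466 Ctrl and 1205 KD cells. The part of this makeup in the pooled levels was not tested. Within C1qc+ TAM-like cells, a name kept by 58.9% to 64.4% of cells on reclustering, both genes were also higher in KD. There Fn1 was at 109 and 257 CPM, a log2 ratio of 1.24 (1.12 to 1.36). Thbs1 was at 96.1 and 211 CPM, with 1.13 (1.00 to 1.26). In those cells 28 of 40 reached 50 UMIs, of which 3 passed 1.5-fold upward in KD and 1 downward, and 11.9% of all genes were past it in either direction. In inflammatory TAM-like cells 27 of 40 reached 50 UMIs, of which 2 passed 1.5-fold upward in KD and 1 downward, and 11.9% of all genes were past it in either direction. Id3, an inhibitor of differentiation, was among the higher genes there, at 207 and 324 CPM.

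In endothelial-like cells 31 of 40 reached 50 UMIs, of which 7 passed 1.5-fold upward in KD and 2 downward, and 19.4% of all genes were past it in either direction. Thbs1 was at 16.5 and 69.8 CPM, from 19 and 300 UMIs, Itgb3 at 87.9 and 187 CPM and Ccn2, a connective tissue growth factor, at 76.6 and 134 CPM, all higher in KD, while Itgav was lower, at 178 and 92.4 CPM. Beside the granulocyte markers given above, macrophage markers in these cells summed to 1583 CPM in Ctrl and 2177 in KD and 3 erythroid markers to 2.61 and 371, with 2 and 0 of the latter at 0, and their part was not tested. The endothelial co-receptors stayed within the fold: Eng (endoglin) was at 925 and 740.4 CPM and Tgfbr3 (betaglycan) at 474 and 502 CPM. In tumor- or fibroblast-like cells 29 of 40 reached 50 UMIs, of which 2 passed 1.5-fold upward in KD and 9 downward, and 23.8% of all genes were past it in either direction. Col1a1, the main collagen of fibroblasts, was at 711 and 199 CPM, Ltbp1 at 240.4 and 152 CPM, and Ldlrad4, an inhibitor of SMAD activation, at 254 and 125 CPM, all lower in KD. Their fibroblast markers were lower in KD as given above, and Col1a1 is itself among those markers.

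The genes whose levels ran most like each member over 42 pairs of class and library with at least 50 cells, out of 11348 genes, were found by Pearson's correlation of log2(CPM + 1). The points share 2 libraries and differ in depth, so these values are a description. For Tgfbi they were Lyz2 (r = 0.96), Pla2g4a (r = 0.96) and Klra2 (r = 0.95), which places it with lysozyme and other myeloid genes. For Itgb8 they were Sdf4 (r = 0.90), Ccr8 (r = 0.86) and Tnfrsf4 (r = 0.85), of which Ccr8 and Tnfrsf4 are known from regulatory T cells of tumors and Tnfrsf4 is among the markers that named the class. For Smad7 they were Prrc2b (r = 0.91), Herc3 (r = 0.91) and Msi2 (r = 0.89), and for Tgfbr2 Elf1 (r = 0.90), Zfr (r = 0.87) and Pou6f1 (r = 0.85). The likeness was lower for Tgfbr1, with Rreb1 (r = 0.82), Lair1 (r = 0.79) and Nceh1 (r = 0.76), for Ski, with Zswim6 (r = 0.78), Gsk3b (r = 0.75) and Kif1b (r = 0.75), and for Tgfb1, with Lipc (r = 0.75), Slc35f6 (r = 0.74) and Camkk2 (r = 0.74). The lists depend in part on the constant added. With log2(CPM + 10), those for Itgb8 were Ccr8 (r = 0.93), Izumo1r (r = 0.93) and Arnt2 (r = 0.88), without Sdf4 and Tnfrsf4.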

How the data were processed

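The deposited counts are UMIs per gene and barcode, made by the authors with Cell Ranger 7.1.0 on GRCm39 (submitters' processing notes) and not normalized. Intron counting is not given in the sources used here. Samples were grouped by the hairpin in their labels. The study's limits (200 genes or more, mitochondrial share up to 10%, up to 30000 UMIs and 6000 genes) left 19999 of 21359 cells and were the main treatment of doublets.

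Cells were clustered in Seurat 5.3.0 (R 4.3.3) with 2000 variable genes, none of them among the 47 pathway genes, 20 principal components and resolution 0.5, without integration. T and NK cells, macrophages and dendritic cells were re-clustered. A name needed 3 markers at a log2 fold of 1 (0.5 in sub-clusters). Some naming rules were chosen with the clusters in view, 925 Ctrl and 671 KD cells stayed unnamed, and differences from the study may come from these rebuilt names. The members and lists were chosen with earlier results of these data known. The rule for named genes took all 7 members, pathway genes with 50 or more UMIs in a class, and the 3 genes most like each member. Tgfb2, Itgb6, Ltbp and Lrrc32 values under that floor were named after their values were seen. Some genes are not reported here.

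UMIs were summed per class (CPM, exact Poisson intervals). Log2 ratios have exact conditional binomial intervals, shares of cells exact Clopper-Pearson intervals, all at 95%. The interval code was tested on simulated data. Cells are not replicates, so no test was made. Alternatives were a filter at 500 genes and 5% mitochondrial UMIs, removal of the 1601 kept cells with the highest Scrublet scores (scanpy 1.11.5), resolution 1.0, pathway genes kept as variable genes, classes from single cells, median-of-ratios scaling, means over cells, no cycling cells, other thinning depths, and other folds and floors.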

Additional observations from a re-analysis of the deposited data

How the results depend on the processing

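Of 486 values of 73 log2 ratios (KD over Ctrl) under the alternatives, 425 lay within the counting interval of the main value, 61 outside it, and 410 kept its sign. The cause of each shift was not tested beyond the change of cells that an alternative makes. Over all macrophages, Tgfb1 was at 0.13 without the Ltc4s+ and low-UMI sub-clusters (chosen after seeing the data), Ski at -0.00084, Tgfbr1 at 0.26 and Tgfbi at 0.071. As a mean over cells, Tgfbr1 was at -0.16 and Tgfbi at 0.064. Without cycling cells, Tgfbr1 was at 0.021 and Tgfbi at 0.019. With classes from single cells, Tgfbi in macrophages was at -0.16, Smad7 in CD8+ naive-like cells at 0.066 and Itgb8 in Treg-like cells at 0.99. At resolution 1.0, Smad7 in CD8+ naive-like cells was at -0.12. With the stricter filter, Ski was at -0.15 in the other cells that took the CD8+ exhausted-like name, and Tgfbr1 in C1qc+ TAM-like cells at 0.67. Tgfbr1 in C1qc+ TAM-like cells was at -0.00756 without likely doublets and 0.32 with the pathway genes kept as variable genes.

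Names carried over unevenly. The Tcf7+ CD8+ sub-cluster kept its name in 90.9% of cells under the stricter filter. It kept it in 0% at resolution 1.0, without likely doublets and with the pathway genes kept as variable genes. At resolution 1.0 no cluster was named CD8+ exhausted-like, so no ratio could be given, and 0.361% of CD8+ naive-like cells kept their name. Without likely doublets 62.4% of exhausted-like cells kept theirs. Over the 4 reclusterings, inflammatory TAM-like names were kept by 29.6% to 46.3% of cells, C1qc+ TAM-like by 58.9% to 64.4% and Treg-like by 84.3% or more. Depth limits Itgb8 most: with 297 and 354 UMIs in all, most classes hold too few to compare. No paired analysis was possible because each group has 1 library.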
